A study of Mus musculus with 4 samples.

Results

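The regions described here are sites bound by p63 in gene deserts that were listed in p63 alphaKO epidermis and not in wild-type (WT) epidermis. A site was a member when its peak in the alphaKO list shared no bp with any WT peak, its summit lay outside every protein-coding gene, and the nearest end of a protein-coding gene (RefSeq, GRCm38.p6, the assembly that mm10 names) was more than 50 kb away. Members were thus chosen by a measured value, the presence or absence of a called peak, together with position. Of 14593 alphaKO peaks, 1646 met the rule (11.3%). The study used chromatin immunoprecipitation and sequencing (ChIP-seq) with the p63 antibody EPR570 on epidermis of dorsal skin taken from mice at postnatal day 0. The groups were p63 alphaKO and wild type, with 1 ChIP library each, and an input library for each genotype was not analysed here. The sources used here give no strain, sex, number of animals per sample or design of the alphaKO allele. With 1 library per genotype nothing was tested between genotypes, and intervals in brackets after shares are 95% Wilson intervals that cover counting error only. Absence from the WT list is part of the rule and not a finding: a WT site under the caller's threshold would also be absent.

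p63 is a transcription factor of the p53 family and the master regulator of stratified epithelia. It binds DNA as a tetramer, at an element built from a pair of similar decamers, and many of its sites in keratinocytes are enhancers far from promoters. Its gene gives rise to isoforms that differ at both ends, the alpha isoforms carrying the longest carboxy terminus, and dominant mutations of this gene cause AEC syndrome, which the title of the series names. Gene deserts are long stretches with no protein-coding gene. They often flank developmental genes and can hold their distant enhancers. Of genes that mark keratinocytes, Krt5, Krt14, Itga6, Col17a1 and Krt10 had 1 to 4 alphaKO peaks and 2 to 5 WT peaks in the gene or within 10 kb, Krt1 had 0 and 1, and Lor had 0 in both lists.

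Sequence was at hand for the sites that lie at the start of a non-coding gene. The promoter windows of RefSeq (250 bases before to 50 after a start, build GRCm38.p6) held the summit of 6 of the 1646 members (0.365%, 0.167 to 0.793) and of 17 of the 1125 alphaKO desert sites with a WT partner (1.51%, 0.946 to 2.41). All 6 belonged to lncRNA genes, and they are shown because they let the DNA under members be read. Capitals mark the 20 bases with the fewest mismatches to the 20-letter p53-family consensus, which reads the same on both strands.
C630028M04Rik: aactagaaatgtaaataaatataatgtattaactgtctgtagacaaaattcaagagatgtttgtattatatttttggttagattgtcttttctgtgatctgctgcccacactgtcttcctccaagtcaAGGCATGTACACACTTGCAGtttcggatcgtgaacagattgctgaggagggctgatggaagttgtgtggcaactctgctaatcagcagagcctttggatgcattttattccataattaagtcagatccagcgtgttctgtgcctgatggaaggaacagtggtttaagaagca
Gm35991: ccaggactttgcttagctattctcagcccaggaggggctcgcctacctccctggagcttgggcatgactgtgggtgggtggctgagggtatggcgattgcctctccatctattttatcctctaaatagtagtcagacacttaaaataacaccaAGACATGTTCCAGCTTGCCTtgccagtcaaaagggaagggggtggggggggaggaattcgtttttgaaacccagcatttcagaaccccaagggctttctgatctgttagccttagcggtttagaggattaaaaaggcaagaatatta
Gm31746: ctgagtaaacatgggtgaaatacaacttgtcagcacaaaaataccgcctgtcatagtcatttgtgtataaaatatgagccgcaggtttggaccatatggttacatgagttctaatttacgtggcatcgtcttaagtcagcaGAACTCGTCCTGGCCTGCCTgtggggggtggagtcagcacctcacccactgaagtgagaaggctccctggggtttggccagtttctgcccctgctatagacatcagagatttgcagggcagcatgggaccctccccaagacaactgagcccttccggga
Gm30266: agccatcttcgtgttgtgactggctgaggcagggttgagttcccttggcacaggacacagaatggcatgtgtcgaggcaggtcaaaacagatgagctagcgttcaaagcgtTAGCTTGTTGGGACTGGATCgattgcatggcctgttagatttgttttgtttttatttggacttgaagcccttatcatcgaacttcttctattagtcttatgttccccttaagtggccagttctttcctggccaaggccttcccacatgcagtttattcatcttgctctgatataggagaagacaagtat
Gm32587: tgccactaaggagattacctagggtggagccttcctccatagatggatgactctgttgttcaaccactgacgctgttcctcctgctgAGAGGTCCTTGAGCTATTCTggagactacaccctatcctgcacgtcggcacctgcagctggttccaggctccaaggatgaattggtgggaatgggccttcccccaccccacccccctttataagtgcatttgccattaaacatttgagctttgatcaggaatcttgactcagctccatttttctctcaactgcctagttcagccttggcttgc
4930425L21Rik: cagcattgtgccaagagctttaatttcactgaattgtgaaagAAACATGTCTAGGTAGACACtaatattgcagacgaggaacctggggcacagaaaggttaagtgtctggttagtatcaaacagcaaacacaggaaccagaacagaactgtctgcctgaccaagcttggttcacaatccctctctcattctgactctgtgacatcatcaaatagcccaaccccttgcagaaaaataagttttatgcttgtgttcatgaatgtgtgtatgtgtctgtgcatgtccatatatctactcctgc
In 5 of the 6 windows the marked stretch lay inside the peak. The windows were chosen because they hold the summit. The peak covered the whole window at Gm35991 and Gm31746 and nearly all of it at C630028M04Rik and Gm32587. A place inside the peak was thus largely set by that choice. At Gm35991 (chr13:47843565-47843864, plus strand, fold 16.1) it differed from the consensus at 1 of 20 letters and was centred 13 bp from the summit. At Gm31746 (chr6:51061208-51061507, minus strand, fold 11.4) it had 3 mismatches, 9 bp from the summit. C630028M04Rik (chr4:52051061-52051360, minus strand, fold 17.0) had 4 mismatches, 2 bp from the summit, and Gm30266 (chr4:106048747-106049046, minus strand, fold 9.10) and Gm32587 (chr14:18463360-18463659, plus strand, fold 6.75) had 4 each, at 46 and 40 bp. The best match at 4930425L21Rik (chr6:135658663-135658962, plus strand), the weakest of these sites with a fold of 3.60, was outside the peak, 239 bp from the summit.

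Among all 32851 RefSeq promoter windows, 0.0883% held a match with 1 mismatch or fewer, 6.29% one with 3 or fewer and 30.2% one with 4 or fewer, so 4 mismatches are common in windows of this length. The looser core, CNNG and CNNG with 6 bases of any kind between them, which lies within the consensus and also reads the same on both strands, occurred in 6 of the 6 member windows, in 17 of 17 windows at summits with a WT partner and in 70.2% of all windows. The 3 strongest desert sites with a WT partner that have such a window are given for comparison.
Gm30257: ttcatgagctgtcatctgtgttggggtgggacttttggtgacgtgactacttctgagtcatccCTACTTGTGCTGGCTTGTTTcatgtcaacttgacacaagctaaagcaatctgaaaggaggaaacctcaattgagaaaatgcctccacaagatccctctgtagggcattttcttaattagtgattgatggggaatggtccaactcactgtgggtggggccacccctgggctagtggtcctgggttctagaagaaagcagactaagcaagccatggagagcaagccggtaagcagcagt
AI197445: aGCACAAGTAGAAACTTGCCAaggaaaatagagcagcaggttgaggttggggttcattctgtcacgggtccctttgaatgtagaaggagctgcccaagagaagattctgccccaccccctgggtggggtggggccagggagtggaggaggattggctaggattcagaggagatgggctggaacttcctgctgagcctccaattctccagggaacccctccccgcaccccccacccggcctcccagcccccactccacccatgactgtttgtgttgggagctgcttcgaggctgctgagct
Gm41854: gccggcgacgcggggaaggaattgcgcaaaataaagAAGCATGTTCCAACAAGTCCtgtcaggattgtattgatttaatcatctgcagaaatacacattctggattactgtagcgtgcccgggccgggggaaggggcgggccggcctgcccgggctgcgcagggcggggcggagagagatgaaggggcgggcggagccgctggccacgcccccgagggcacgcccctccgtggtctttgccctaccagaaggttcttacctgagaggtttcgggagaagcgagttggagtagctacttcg
Gm41854 (chr19:44672167-44672466, plus strand, fold 54.2) had 1 mismatch, centred 8 bp from the summit. AI197445 (chr13:107469572-107469871, plus strand, fold 59.5) and Gm30257 (chr2:72733571-72733870, plus strand, fold 101.9) had 4 each, at 7 and 1 bp. A match is a description of the letters and was not tested as a binding site.

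The members were mostly weaker than the desert sites with a partner, with a tail of strong peaks. The fold enrichment used here is the authors' own value for each peak, the pileup of fragments at the summit over the caller's local background, and it is compared only within the alphaKO list unless stated. The 1646 members had folds of 1.40 to 237, with a median of 13.2 (quartiles 9.39 and 20.7), against 19.8 (11.0 and 34.3) for the 1125 alphaKO desert sites with a WT partner and 12.7 (9.12 and 20.6) for the 2148 alphaKO-only sites that lay between genes within 50 kb of one. Their median pileup was 83 fragments and their median width 364 bp, against 144 fragments and 450 bp for the desert sites with a partner. The recovered local background was also lower, at a median of 5.08 against 6.30 fragments. Lack of a partner is part of the rule, and strong peaks lacked one less often outside deserts too. There 60.3% of alphaKO peaks in the weakest quintile of fold had no WT partner, and 21.2% in the strongest. A lower strength than that of partnered sites is thus not particular to the members. A fold above 20 was reached by 432 members (26.2%, 24.2 to 28.4), a fold of 50 by 62 and a fold of 100 by 14. The shares of the whole list at these heights are not given here. Over all 14593 alphaKO peaks the upper quartile was 27.2, above the 20.7 of members. The median of partnered desert sites, 19.8, was exceeded by 26.9% of members and by 24.7% of all alphaKO-only sites. Strong peaks were thus not a mark of the members. At the weak end, 56 members had a fold under 5 and 39 a −log10 q under 10.

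Sites listed in WT alone in the same kind of place were fewer and weaker in their own list. There were 445 of them, with folds up to 18.9 and a median of 5.10 (quartiles 4.01 and 6.71). That none of the 445 exceeded a fold of 20 follows from this maximum and is no separate result. These folds come from another library and another call, and the lists differ as a whole, with medians of 15.5 over all 14593 alphaKO peaks and 8.44 over all 10616 WT peaks. The smallest background per bp of the smallest peak width was higher in WT by a factor of 1.11. Read totals and the settings and control of each call are unknown, so this factor does not give the depth of the ChIP libraries. The part of these library-wide differences in the number of members was not tested.

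**Figure D1:**
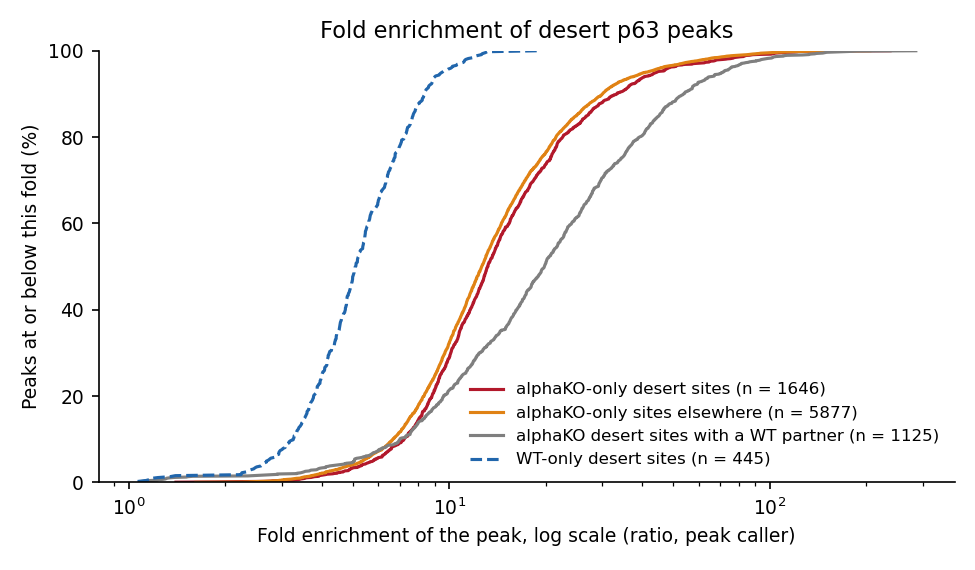
Cumulative share of peaks (y axis, %) by fold enrichment (x axis, log scale, ratio as given by the peak caller) for alphaKO-only desert sites, alphaKO-only sites elsewhere, alphaKO desert sites with a WT partner and WT-only desert sites. Each line is 1 set of peaks. Over most of the range the alphaKO-only desert sites lie left of the desert sites with a partner (medians 13.2 and 19.8), and they are close to the other alphaKO-only sites, and the WT-only desert sites, from another list, end at 18.9.

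Desert peaks of the alphaKO list were without a WT partner more often than its other peaks. No partner was found for 1646 of 2771 alphaKO peaks in deserts (59.4%, 57.6 to 61.2) and for 5877 of 11822 elsewhere (49.7%, 48.8 to 50.6), beside 51.6% of the whole list, a share that the rule itself uses. Among alphaKO summits outside genes the share was 34.2% within 1 kb of a gene end, 44.9% at 1 to 5 kb, and between 50.1% and 51.2% in the steps out to 50 kb. It was 57.1% (53.9 to 60.2) at 50 to 100 kb, 54.6% (51.2 to 57.8) at 100 to 200 kb, 62.8% (59.1 to 66.3) at 200 to 500 kb and 76.1% (70.5 to 81.0) beyond 500 kb, where 191 of 251 alphaKO peaks were members. The WT list did not show this rise: its share of desert peaks without an alphaKO partner was 28.4% (26.2 to 30.6), against 34.3% (33.3 to 35.3) elsewhere, and beyond 500 kb it was 19.7% (12.3 to 30.0) of 76 peaks. The strength of members did not follow distance, with median folds of 13.1, 13.7, 12.5 and 13.3 in the 4 steps from 50 kb outward.

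**Figure D2:**
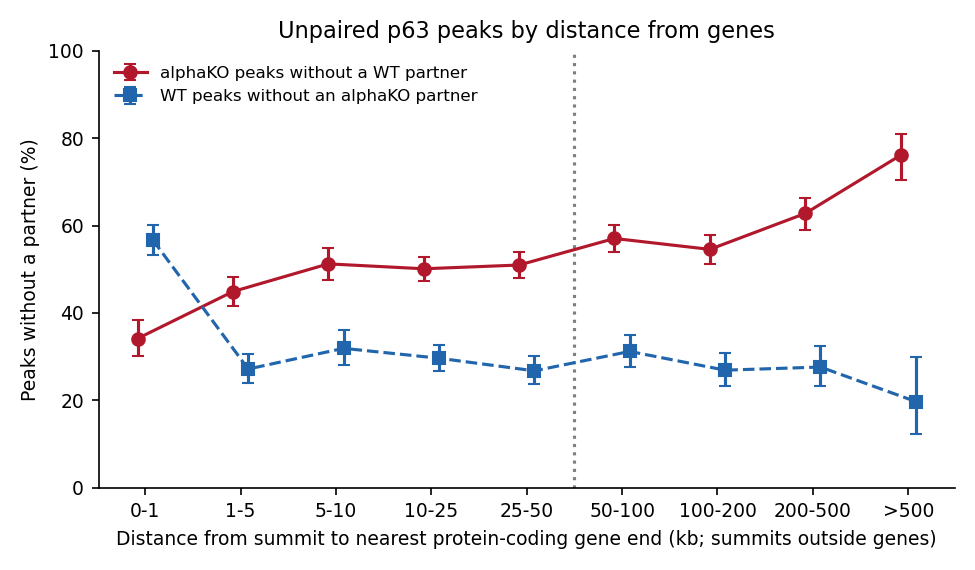
Share of peaks without a partner in the other list (y axis, %) by distance of the summit from the nearest end of a protein-coding gene (x axis, kb, summits outside genes), for alphaKO peaks (circles) and WT peaks (squares), with 95% Wilson intervals as bars and the 50 kb limit as a dotted line. The alphaKO share is 34.2% in the nearest step and 76.1% beyond 500 kb, and the WT share is 56.7% in the nearest step and 19.7% beyond 500 kb.

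The share without a partner was the higher one in deserts in each range of strength. When alphaKO peaks were split into quintiles of fold, starting with the weakest, 64.2%, 73.7%, 67.5%, 50.8% and 37.0% of desert peaks had no WT partner, against 60.3%, 68.4%, 57.8%, 42.0% and 21.2% of the other alphaKO peaks. The intervals overlapped in the weakest quintile (60.1 to 68.1 in deserts, 58.4 to 62.3 elsewhere) and in the next (70.0 to 77.1 and 66.5 to 70.3). They lay apart in the other quintiles, the strongest included (32.9 to 41.4 and 19.6 to 22.8). The strongest quintile held 183 of the 1646 members (11.1%, 9.69 to 12.7), against 311 of the 1125 desert sites with a partner (27.6%, 25.1 to 30.3), and 11.7% of the alphaKO-only sites within 50 kb of a gene. The 183 were 26.3% of its 696 alphaKO peaks without a partner. Within that quintile members had a median width of 491 bp and a median pileup of 262, against 529 bp and 356 for desert sites with a partner.

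**Figure D3:**
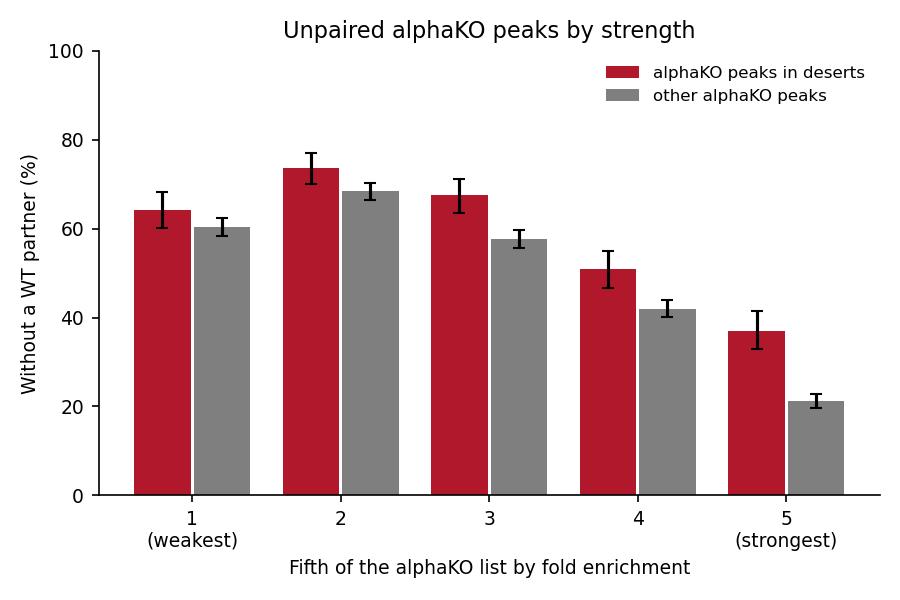
Share of alphaKO peaks without a WT partner (y axis, %) by quintile of fold enrichment in the alphaKO list (x axis), for peaks in deserts and for other alphaKO peaks, with 95% Wilson intervals as bars. The share in deserts is above the other in each quintile, 64.2% against 60.3% in the weakest and 37.0% against 21.2% in the strongest.

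The strongest members were tall and wide peaks on many chromosomes. The 20 with the highest fold lay on 12 chromosomes, ranked between 10 and 347 among all alphaKO peaks, and had widths of 484 to 670 bp and pileups of 408 to 1159 fragments over backgrounds of 3.85 to 6.78. Of these 20, 12 were more than 100 kb from a gene and 17 more than 50 kb from the nearest WT peak. Of all 1646 members, 1100 and 1154 were as far, so a distance over 100 kb from a gene did not mark the strongest. The highest lay 259 kb from Dipk2a (chromosome 9, 94258577 to 94259139), with a fold of 237, and the nearest WT peak was 10.5 kb away. Next were sites 74.2 kb from Rb1cc1, which encodes a scaffold of autophagy initiation (fold 152), and 602 kb from Bcl11a, a zinc finger repressor (fold 129, chromosome 11, 24775689 to 24776253). Sites near Tent4a, a non-canonical poly(A) polymerase, and near St6gal2, a sialyltransferase, had folds of 122 each. The St6gal2 site was 404 kb from that gene and 1052 kb from the nearest WT peak.

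Hs3st4, a heparan sulphate 3-O-sulfotransferase gene, was 277 kb from a site with a fold of 119, and Hs6st1, a heparan sulphate 6-O-sulfotransferase gene, was 439 kb from a site with a fold of 83.8. A site with a fold of 111 lay between Ddhd1, a phospholipase, and Bmp4, a ligand of the bone morphogenetic protein pathway, 84.1 kb from Ddhd1. The site near Tns3, which encodes the focal adhesion protein tensin 3, had a fold of 107 and lay between that gene and Igfbp3. The site 69.8 kb from Xpo1, the main nuclear export receptor, had a fold of 103. A site with a fold of 101 stood between Gm52008 and Bcl11b, a zinc finger factor of skin and T cells, 323 kb from Gm52008. The remaining members of the 20 lay nearest to Maip1 (113), Cfap20dc (104), Gm11780 (103), Commd3 (101), Tbl1xr1 (92.6), Slc7a14 (88.4), Iftap (87.6), Tmem182 (86.5) and Gm6812 (84.3).

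The weakest members were close to the threshold or lay on high background. Their folds were 1.40 near Esp38, 1.87 near LOC665918 on chromosome Y, 2.15 near Epcam, 2.64 near Adgrl2 and 2.77 near Med13l. The Esp38 site had a pileup of 765, was the only member with a background above 50, and lay 3.29 kb from a WT peak. The limit of 50 kb cut through a continuous range: the members nearest to it were 50.02 kb from Cldn34b3 (fold 36.7), 50.06 kb from Cdo1 (8.82) and 50.24 kb from 1700122O11Rik (31.0). Just short of it lay alphaKO-only sites 49.96 kb from Lsm3 (23.9), 49.89 kb from Gabrg1 (27.2) and 49.58 kb from Tdrd3 (5.82).

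Members differed widely in their distance from WT peaks, of which the rule fixes only that none overlaps, so that summits within about a peak's width are all but left out by it. The nearest WT summit was a median of 133 kb away (quartiles 35.7 and 393 kb), against 47.9 kb for alphaKO-only sites within 50 kb of a gene. A WT summit lay within 1 kb of 7 members (0.425%, 0.206 to 0.875) and within 10 kb of 153 (9.30%, 7.99 to 10.8), and none lay within 1 Mb of 140 (8.51%, 7.25 to 9.95). The closest pair of summits was 0.598 kb apart, at a member 150 kb from Id4 with a fold of 17.1. On the autosomes and X the most remote was 4972 kb from a WT peak, at a member near Tgif2lx2 on chromosome X with a fold of 13.2. The member on Y was 90521 kb from the nearest WT peak.

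Members were also more isolated within their own list than desert sites with a partner. Another alphaKO peak of any kind was a median of 56.1 kb away, against 28.1 kb for desert sites with a WT partner, and lay within 10 kb for 291 members (17.7%, 15.9 to 19.6) and 318 partnered sites (28.3%, 25.7 to 31.0). For 1007 members (61.2%, 58.8 to 63.5) the nearest alphaKO peak was itself without a WT partner, and for 528 partnered desert sites (46.9%, 44.0 to 49.9) it was. Of all alphaKO peaks in deserts 59.4% had no WT partner, close to the share for members, and of the whole list 51.6%. Runs of members, with at most 50 kb from summit to summit, took in 473 sites (28.7%) in 210 runs of 2 to 5. Of these runs, 183 had no WT summit in their span. Deserts held 0.436 WT-only and 1.10 partnered sites per Mb, so short spans with no WT summit are common there.

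The longest run had 5 members within 43.5 kb between Gadd45a, a stress response gene induced by p53, and Serbp1, an mRNA-binding protein gene (chromosome 6, 67134904 to 67178409). Its members had folds of 9.74, 14.2, 40.3, 9.38 and 9.36, and an alphaKO peak with a WT partner and a fold of 27.1 lay between the third and the fourth. Runs of 4 stood near Slc7a14, an amino acid transporter family gene (folds 10.6, 14.9, 10.2 and 88.4), near Mctp2 (8.69, 16.2, 3.97 and 12.5) and near Phactr1, a regulator of actin and protein phosphatase (13.3, 4.23, 10.9 and 6.42). Another run of 4, between Rpl34 and Lef1, a transcription factor of Wnt signalling, had folds of 4.02 to 12.4. None of these 4 runs had a WT peak in its span. In each run the folds ranged by several-fold, so neighbouring members were not of one height.

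The genome had 2967 stretches over 100 kb between neighbouring protein-coding genes, and 867 of them (29.2%, 27.6 to 30.9) held a member. These had a median length of 473 kb, against 183 kb for stretches with no member. A single member was found in 485 stretches and 5 or more in 48, which together held 296 members. In 341 stretches with members there was no WT peak anywhere between the flanking genes, and these held 519 of the 1639 members between genes (31.7%, 29.5 to 34.0). How many of all 2967 stretches had no WT peak is not given here, so these counts stand without a base. Another 7 members lay beyond the first or last gene of a chromosome.

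All kinds of desert site thinned out as deserts grew, and members least. Per Mb of desert (leaving out the 50 kb next to each gene) there were 2.83 members in stretches of 100 to 200 kb, 2.37 at 200 to 500 kb, 1.75 at 500 to 1000 kb, 1.38 at 1000 to 2000 kb and 0.855 in longer ones. Sites with a WT partner numbered 2.63, 1.97, 1.20, 0.781 and 0.268 per Mb, and WT-only sites 0.9998, 0.839, 0.441, 0.268 and 0.142. There were thus 1.07 members per partnered site in the shortest stretches and 3.19 in the longest, where counts were 198 and 62. These densities pool all chromosomes, of which X and Y had few sites. Of 1006 Mb of desert, Y had 65.2 Mb with 1 member and 0 partnered sites, and X had 77.9 Mb with 0.539 members per Mb. Densities by length without X and Y are not given here, and the part of these chromosomes was not tested. Mappability and base composition of the stretches, which could differ with their length, were not analysed here.

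**Figure D4:**
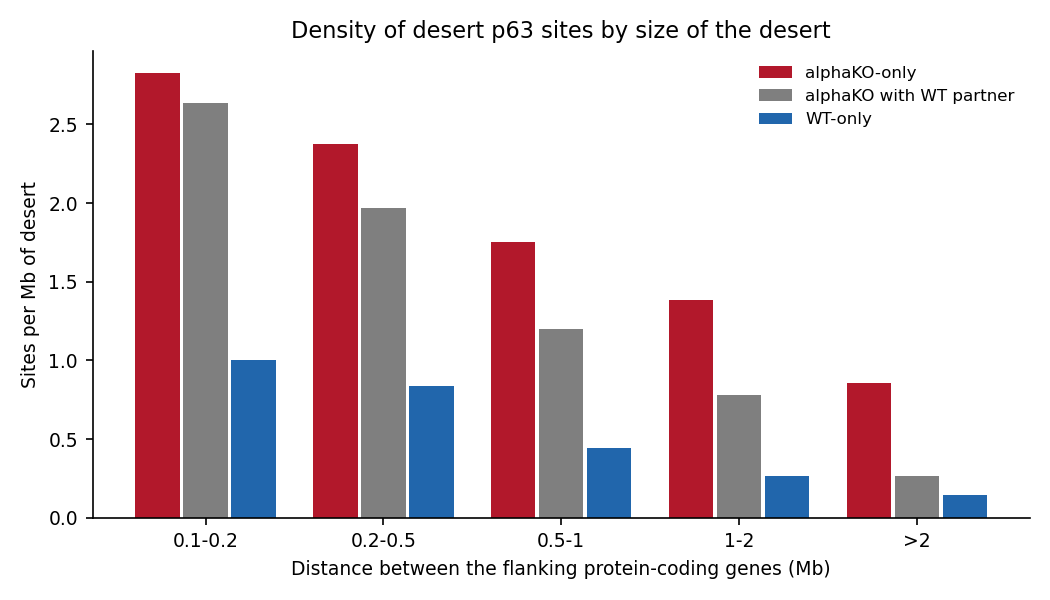
Sites per Mb of desert (y axis) by distance between the flanking protein-coding genes (x axis, Mb), for alphaKO-only sites, alphaKO sites with a WT partner and WT-only sites; each bar is a count divided by the desert length, without an error. Members number 2.83 per Mb in the shortest and 0.855 in the longest stretches, against 2.63 and 0.268 for sites with a partner.

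The richest stretch lay between Slc4a3, an anion exchanger gene, and Epha4, an ephrin receptor gene (chromosome 1, 75559432 to 77367181), with 11 members, 8 desert sites with a WT partner and 13 WT peaks in all. The stretch between Rnf144b and Id4 held 9 members and 2 partnered sites within 1013 kb. Stretches between Adgrl2 and Adgrl4, both adhesion receptor genes, and between Slc10a2 and Efnb2 also held 9 members, with 3 and 4 partnered sites. Between Plekhb2 and Hs6st1 there were 8 members and no partnered desert site, and between Atp5g3 and Lnpk 6 members, with no WT peak in the whole 602 kb. The most crowded of the stretches with 6 or more was the 278 kb between Dnajc1 and Commd3, with 6 members or 33.6 per Mb of desert and 1 WT peak.

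The members had 1017 protein-coding genes as nearest gene, which is 4.65% of all 21887 and 21.4% of the 4747 that stand at the edge of a desert. Of these, 657 had 1 member, 213 had 2 and 147 had 3 or more. The nearest gene is a matter of position, and no target was tested. Zfp608, a zinc finger protein gene (chromosome 18, 54888045 to 54992591), had most, with 11 members on both sides. On the side of lower coordinates, going outward, their folds were 20.7, 21.4, 7.49 and 8.29, and on the other side 32.5, 18.1, 10.2, 5.21, 6.92, 12.2 and 10.4. The strongest was also the closest, at 65.8 kb, and the farthest lay 655 kb away. The same surroundings had 3 partnered desert sites and no WT-only site.

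Mctp2, which encodes a membrane protein with C2 domains, had 10 members with folds between 3.97 and 25.7, at 90.4 to 583 kb, and 1 partnered desert site. Id4, a dominant-negative regulator of basic helix-loop-helix factors, had 8. Going outward from the gene their folds were 17.8, 46.7, 17.1, 7.48, 10.0, 26.0, 16.1 and 8.21, the closest at 52.4 kb, and 3 of the 8 lay within 1.3 kb of a WT summit. The site with a fold of 16.1 is the one at the start of Gm35991 whose sequence is given above.

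Gata3, a transcription factor of the hair follicle and the barrier, had 7 members amid sites of the other kinds. Their folds lay between 8.19 and 14.4 (14.4, 8.19, 9.03, 10.2, 9.85, 10.5 and 9.37 going outward), among 11 desert sites with a WT partner and 4 WT-only sites. Slc10a2, which encodes a bile acid transporter of the intestine, had 7 members with no partnered and no WT-only site, and folds of 5.66 to 47.9. Acvr2a, an activin receptor gene, had 7 with folds of 4.55 to 22.6, at 303 to 1444 kb, and 2 partnered sites. Pik3r1, which encodes the p85 alpha regulatory subunit of PI3 kinase, had 7 with folds of 6.48 to 20.1 and 2 partnered sites.

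**Figure D5:**
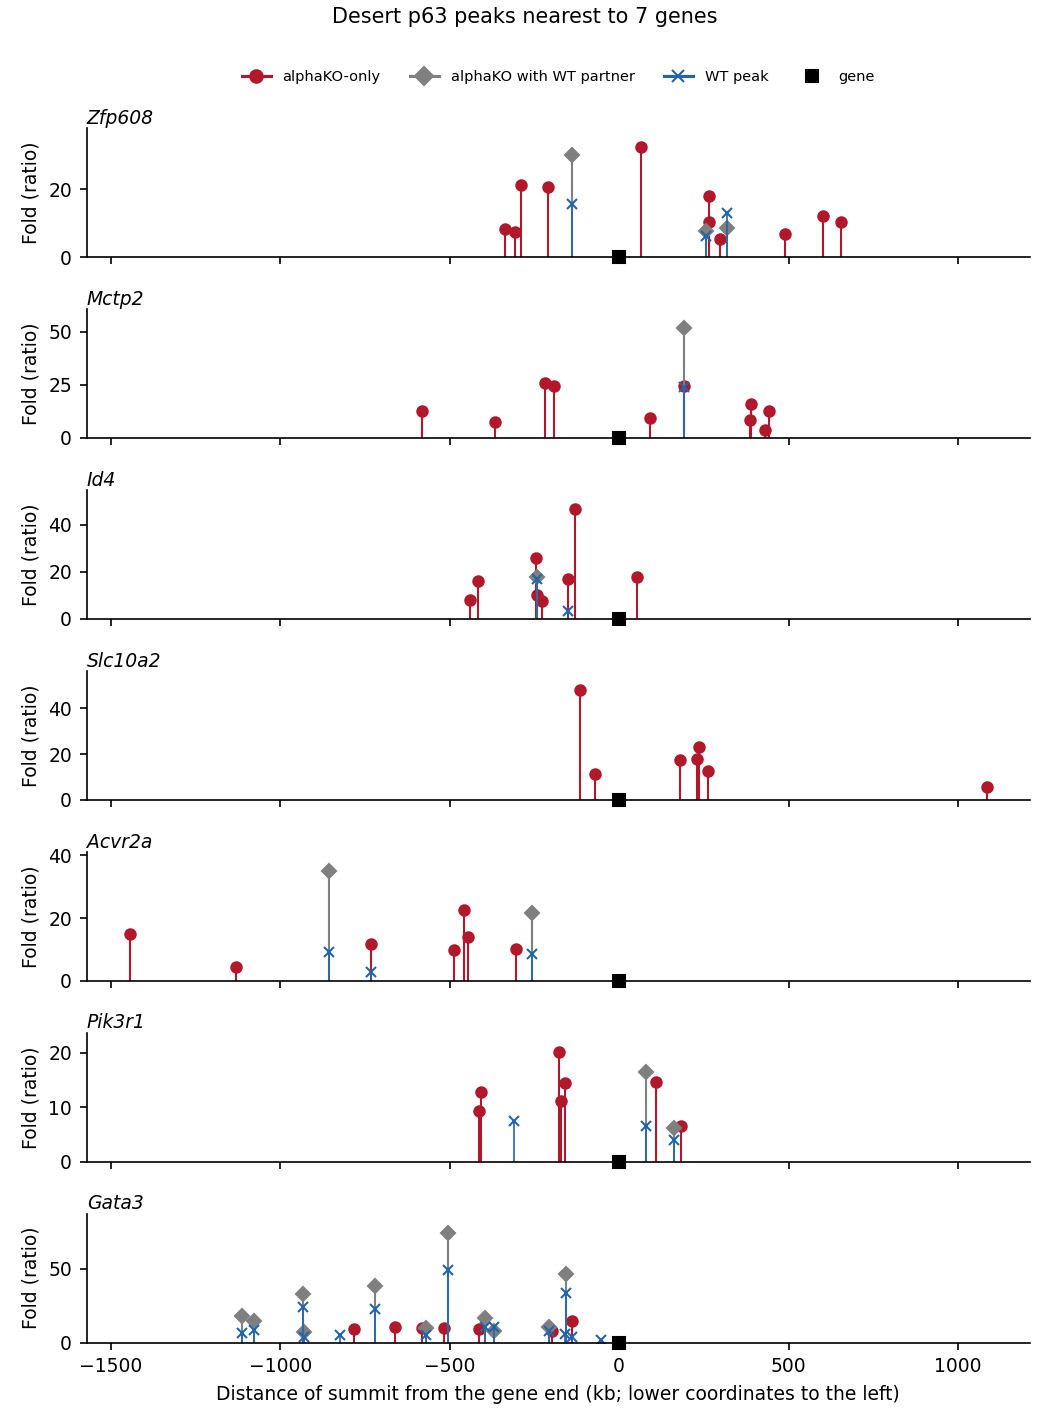
Fold enrichment (y axis, ratio) of desert peaks by distance of the summit from the end of the nearest gene (x axis, kb, gene at 0) for the 7 genes with most members. Circles are alphaKO-only sites, diamonds alphaKO sites with a WT partner and crosses WT peaks, whose folds come from another list. Gata3 has 7 members among 11 partnered sites, and Slc10a2 has 7 members and no other desert site.

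Counts over lists of genes are read beside the 21.4% of all genes at a desert edge that were nearest to a member. That share is not matched for desert length. A member lay in 10.2% of stretches of 100 to 200 kb and in 78.3% of those over 2000 kb. A list with long deserts can thus differ from 21.4% by length alone, and its part was not tested. Of 20 transcription regulators of the epidermis, 13 stood at a desert edge, 8 of these (61.5%) were the nearest gene of a member, and 10 that of a desert site with a WT partner. Members lay 85.6 kb from Hes1, a Notch effector (fold 23.1, with a WT peak 1.81 kb away), and 105 kb from Cebpb, a factor of keratinocyte differentiation (17.7). Trp63, which encodes p63 itself, had 1 member 103 kb away, with a fold of 3.92 and a WT peak 4.43 kb from it. These 8 genes had 15 members in all (0.911% of members, 0.553 to 1.50), and the list had 37 partnered desert sites (3.29% of them, 2.40 to 4.50).

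Genes of neural adhesion had the opposite balance. Of 36 genes of cadherins, protocadherins and neural adhesion, 35 stood at a desert edge and 23 of these (65.7%) were nearest to a member, 10 to a partnered desert site and 2 to a WT-only one. They had 49 members (2.98%, 2.26 to 3.91) and 12 partnered sites (1.07%, 0.611 to 1.86). The strongest member lay 982 kb from Lrrc4c, a postsynaptic adhesion gene (fold 48.0), and another 177 kb from Cdh8, a type II cadherin gene (38.2). Pcdh7, a protocadherin gene, had 6 members, the strongest at 19.5. These genes stand beside very long deserts: the longest stretch next to each had a median of 2338 kb, against 426 kb for the epidermal regulators at a desert edge and 245 kb for all genes at one, and members per partnered site differ with that length, as given above. The part of desert length in this balance was not tested.

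Of 20 hair follicle genes, 15 stood at a desert edge and 10 (66.7% of these) were nearest to a member, with 15 members and 16 partnered sites. Their strongest were of modest height, near Bmp4 (14.0), Gli2, a transcription factor of hedgehog signalling (13.8), and Shh, the hedgehog ligand of hair placodes (10.8). Of 35 developmental transcription factors with long flanks, 32 stood at an edge and 15 (46.9% of these) were nearest to a member, with 30 members and 32 partnered sites, led by Bcl11a, Id4 (46.7) and Sall3 (44.6). Of 24 growth factor genes, 18 stood at an edge and 5 were nearest to a member (27.8% of these, near the share of all edge genes), with 7 members, 9 partnered and 5 WT-only sites, led by Fst, which encodes the activin antagonist follistatin (26.0), Inhba, an activin subunit gene (22.6), and Bmp4. Of 23 axon guidance genes, 20 stood at an edge and 7 (35% of these) were nearest to a member, led by Epha3 (44.9), Epha4 (33.2) and Robo2 (16.6), with 12 members and 12 partnered sites. Of 21 glutamate and GABA receptor genes, 19 stood at an edge and 4 (21.1% of these, as in all edge genes) were nearest to a member. Among the 4 were Gria1 (30.1), Grm7 (10.7) and Grin2b (3.60), and no gene of the list was nearest to a partnered desert site. The longest stretch next to each edge gene had a median of 240 kb for the hair follicle genes and 858 kb for the developmental factors. It was 375 kb for growth factor, 723 kb for axon guidance and 709 kb for receptor genes, against 245 kb for all edge genes.

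Of genes of the epidermal layers themselves, some of the basal layer and none of the outer layers was nearest to a member. Of 18 genes of the basal layer and its anchors, Itga6 (11.9) and Itgb1 (9.43), both integrin subunit genes, had 1 member each, and of 19 suprabasal and cornified envelope genes none had one, with 5 and 2 genes of these lists at a desert edge. The basal count is 40% of its genes at an edge, but rests on 2 genes. With 2 genes of the outer layers at an edge, their lack of a member is no contrast with the basal layer. Markers of other cells were Postn (21.0) and Dcn (15.9) of 10 dermal fibroblast genes, Cdh5 (19.5) of 8 endothelial genes, Ptprc (13.0) of 9 immune genes with a match, and Piezo2 (10.7) and Atoh1 (9.59) of 6 Merkel cell genes. None of 10 melanocyte genes was nearest to a member. At a desert edge stood 7 of the fibroblast, 5 of the endothelial, 1 of the immune, 3 of the Merkel cell and 4 of the melanocyte genes, too few to read a share from. A peak near a marker gene says nothing of how many such cells the samples held.

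Most members had their summit outside non-coding genes, but many lay near one: 556 of the 1646 remained when more than 50 kb from any RefSeq gene was required, non-coding ones included. The summit lay in an annotated lncRNA gene for 288 members (17.5%, 15.7 to 19.4) and for 232 desert sites with a WT partner (20.6%, 18.4 to 23.1), and in a pseudogene for 22 (1.34%) and 17 (1.51%). Of microRNA genes, 3 had a member within 10 kb, Mir3970 at 1.79 kb (fold 7.65), Mir125b-2 at 2.78 kb (7.48), which encodes a precursor of miR-125b, and Gm51288 at 9.20 kb (16.7).

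Every chromosome held members. Numbers ran from 154 on chromosome 1 and 127 on chromosome 3 down to 34 on chromosome 19, 42 on X and 1 on Y. Per Mb of desert, autosomes had between 1.36 (chromosome 5) and 2.67 (chromosome 13), X had 0.539 and Y 0.0153. The desert sites with a WT partner were also sparse on X, at 0.346 per Mb, so that the share of desert alphaKO peaks without a partner was 60.9% (49.1 to 71.5) on X, within the range of the autosomes. Among autosomes this share was highest on chromosome 19 (72.3%, 58.2 to 83.1) and chromosome 18 (72.1%, 61.8 to 80.5) and lowest on chromosome 9 (49.6%, 41.2 to 58.1). The sex of the animals is unknown here, and its part in the low density on X was not tested.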

How the data were processed

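The submitters' processing notes name MACS2 2.1.1.20160309, Bowtie2 and build mm10. The sources used here give no options, duplicate handling or control of a call. Each ChIP library has 1 list of peaks deposited by the authors. Its values, per the file headers, are the coverage (pileup) at the summit, the fold enrichment (a ratio over local background), and the p-value and q-value of each peak as −log10. The smallest −log10 q was 1.36 in alphaKO and 1.31 in WT. Read totals are unknown, so depth limits the calls in a way that cannot be stated. Local background was computed as (pileup + 1)/fold − 1.

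Genes came from a RefSeq table with 21887 placed protein-coding genes. No genome was at hand, so motifs were read only in RefSeq promoter windows. The 14 gene lists held 260 entries for 257 genes, 256 of them matched. Members, lists and alternatives were chosen with earlier results of these data known. Sites named were the 20 strongest and 5 weakest, those next to the 50 kb limit, the densest runs, the genes with most members and up to 3 genes per list by fold. Some that met this rule are not reported here. Others were chosen after their values were seen: the stretches, the sites at sequenced promoters, near microRNA genes and on Y, and the values for Trp63, Pcdh7, Piezo2, Atoh1 and Grin2b. No test was run. The Wilson intervals take in nothing but counting error, since peaks are no replicates and PCR reads no independent molecules. The code was tested on simulated data. Python 3.11.15, pandas 2.3.3, NumPy 2.4.6, statsmodels 0.14.6 and matplotlib 3.10.9 were used.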

Additional observations from a re-analysis of the deposited data

How the results depend on the processing

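No paired analysis was possible because each genotype had 1 ChIP library. Of 110 recomputed values, 86 differed from the reported value by less than its interval (for counts, by less than 1.5 times) and 24 by more. Apart from the effect of fewer peaks or other limits by construction, the cause was not tested. The share of alphaKO peaks without a WT partner was higher in deserts than elsewhere under all 12 settings that changed the lists, the partner rule or the gene limit. With the alphaKO list reduced to the length of the WT list there were 1078 members, shares without a partner of 54.6% in deserts and 43.6% elsewhere, a median fold of 17.3, a median width of 390 bp, 12.9% within 10 kb of another alphaKO peak and a median distance to WT peaks of 149.5 kb. With folds of at least 5 the shares were 61.7% and 52.4% and that distance 144 kb. With 50% overlap required, 52.6% of non-desert peaks had no partner, and with summits within 100 bp the shares were 61.3% and 52.2%. A limit of 25 kb gave 57.04% in deserts and 105 kb to WT peaks. A limit of 100 kb gave 15.7% within 10 kb of another alphaKO peak, 177 kb to WT peaks and 669 nearest genes. Counting all RefSeq genes, non-coding ones included, left 556 members, 68.7% without a partner in deserts, 245 kb to WT peaks and 386 nearest genes. Another alphaKO peak lay within 5 kb of 10.5% and within 50 kb of 47.1% of members. The −log10 q limits of 5 and 10, a partner distance of 500 bp, and leaving out X and Y or high background moved no value beyond these limits. Motif alternatives over peaks were not run, since no genome was at hand.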
